A study of Mus musculus with 12 samples.

Results

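Mitochondrial ribosomal protein genes were taken as every gene whose symbol begins with Mrpl or Mrps followed by a digit. This gave 78 of the 24906 genes listed, and all 78 were listed in both expression tables. By their names and known positions in the mammalian mitoribosome, 51 encode proteins of the large subunit and 26 of the small subunit. Mrps18a and Mrps30 carry small subunit names but sit in the large subunit and were counted there. Mrps36, now known as a component of the 2-oxoglutarate dehydrogenase complex, was counted in neither.

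The libraries came from intestinal tumor organoids, clusters of cells cultured from tissue, of the genotype Smad4KO;BRAFV600E/+. The source mice were Smad4f/f; BRAFV600E/+ with the tamoxifen-inducible Villin-CreERT2, which is active in intestinal epithelium, and the labels give no age. The organoids carried the lentiviral construct pINDUCER-SMAD4, which expresses SMAD4 when doxycycline (dox) is added. Dox was given at 4 µg/mL for 48 h, and RNA-Seq was performed in 2 environments, in a basement membrane extract (BME) and directly on plastic. On plastic there were 3 dox and 3 untreated libraries, from organoid lines 560, 700 and 889. In BME there were 3 untreated libraries, from lines 682, 700 and 889, and 2 dox libraries, from lines 700 and 889. The remaining BME library, from line 682, was labelled as given dox with the word mock. Its title and genotype labels read like those of an induced library, and the study's group sizes place it with the vehicle libraries. Each library of a line therefore had an untreated or treated partner, giving 5 induced pairs and 1 mock pair, 682 in BME. The replicates were organoid lines, and no source states that each line came from a different mouse.

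The mitochondrial ribosome translates the few messages encoded by mitochondrial DNA, which specify core subunits of the oxidative phosphorylation complexes. Its proteins are encoded in the nucleus, made in the cytosol and imported, while its ribosomal RNAs come from mitochondrial DNA. Tetracyclines such as dox bind the decoding site of the small subunit of bacterial ribosomes and also inhibit mitochondrial translation. A library that received dox without SMAD4 induction therefore gives a reading beside the induced pairs, although here there was 1 such pair. Line 682 had no induced pair, so line and lack of induction cannot be told apart. The induced pairs received dox as well. The mitochondrially encoded transcripts were not analysed here, since 0 of the listed symbols carried the mt- prefix.

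Expression is given as FPKM, fragment counts corrected for transcript length and for a scale factor of each library, which did not follow its read total. Smad4 stood at 10.3 FPKM in the mock library and 8.88 FPKM in its untreated partner. It was 17.2 to 73.6 FPKM in the 5 dox libraries, against 1.54 to 6.53 FPKM in their partners. Epithelial markers summed to 5961 to 17919 FPKM per library, with Cdx1 at 0 in most libraries, whereas 8 fibroblast markers summed to at most 5.83 FPKM, 4 endothelial markers to at most 3.65 FPKM and 6 immune markers to at most 38.8 FPKM. Of the immune markers Cd68, found in lysosomes of macrophages, was 38.7 FPKM in the dox library of line 889 on plastic against 2.70 FPKM in its untreated partner and 3.58 to 16.1 FPKM in the other libraries, while Ptprc and Cd3e were at most 0.0958 and 0.0566 FPKM. The part of Cd68 in the results for that pair was not tested. Reads rebuilt from the tables came to 14531048 to 21064626 per library. The FPKM values summed to between 530255 and 706750 per library, and both ends of this range belonged to line 560 on plastic, the lower one to its dox library. In bulk RNA, fewer cells of a type and less RNA per cell cannot be told apart.

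Promoter windows of 250 bases before to 50 after the transcription start were taken from RefSeq (build GRCm38.p6), where 69 of the 78 symbols matched with 75 windows. Mrpl4, Mrpl13, Mrpl15, Mrpl19, Mrpl38, Mrpl54, Mrps28, Mrps34 and Mrps35 were not matched. Of the sequence elements searched, on both strands, 3 are named for regulators of nuclear genes for mitochondrial proteins, GCATGCG for NRF1, CCGGAAG for ETS factors such as GABP, and ATGGCGG for YY1. The ETS element was present in 34.7% of the members' windows, in 17.5% of the windows of genes tested in BME and in 8.86% of all 32851 windows. The NRF1 element was present in 10.7%, 6.12% and 3.58% of these windows, and the YY1 element in 17.3%, 7.81% and 4.05%. Of the general elements, the GC box (GGGCGG) was less frequent in the members' windows than in those of tested genes, at 52.0% against 61.5%, with 35.7% of all windows, and the CCAAT box (CCAAT) was in 40.0%, 38.0% and 37.4%. The E-box (CACGTG) was in 9.33%, 10.025% and 7.15%, and the TATA box (TATAAA) in 6.67%, 7.42% and 13.6%. A GC-rich element bound by SMAD proteins, GGCGC, was in 66.7% of the members' windows, 61.2% of those of tested genes and 36.9% of all windows, and the palindromic SMAD element GTCTAGAC was in 0 of the 75, 0.258% and 0.213%. The following 8 windows, 5′ to 3′ on the gene's strand, belong to the matched genes among the 5 lowest and the 4 highest of the mock pair described below, and capitals mark the NRF1, ETS and YY1 elements. Mrps18c, Mrps12, Mrps27 and Mrpl18 were among the lowest, at chr5:100798509-100798808 (plus strand), chr7:28741772-28742071 (minus), chr13:99344536-99344835 (plus) and chr17:12916042-12916341 (minus). Mrps21, Mrpl10, Mrpl17 and Mrps18a were the highest, at chr3:95871465-95871764 (minus), chr11:97041332-97041631 (plus), chr7:105811038-105811337 (minus) and chr17:46110754-46111053 (plus).
Mrps18c: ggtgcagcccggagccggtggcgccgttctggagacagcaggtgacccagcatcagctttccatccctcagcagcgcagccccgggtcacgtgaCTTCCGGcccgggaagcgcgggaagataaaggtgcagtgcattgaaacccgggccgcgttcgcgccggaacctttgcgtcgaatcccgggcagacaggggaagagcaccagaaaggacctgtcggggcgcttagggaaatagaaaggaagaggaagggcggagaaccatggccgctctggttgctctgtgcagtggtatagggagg
Mrps12: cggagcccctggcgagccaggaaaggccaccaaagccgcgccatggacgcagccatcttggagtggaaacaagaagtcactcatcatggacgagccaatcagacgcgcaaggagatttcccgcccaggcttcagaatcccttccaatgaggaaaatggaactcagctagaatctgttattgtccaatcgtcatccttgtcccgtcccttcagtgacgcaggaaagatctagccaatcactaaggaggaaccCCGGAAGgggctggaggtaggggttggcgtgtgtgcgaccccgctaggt
Mrps27: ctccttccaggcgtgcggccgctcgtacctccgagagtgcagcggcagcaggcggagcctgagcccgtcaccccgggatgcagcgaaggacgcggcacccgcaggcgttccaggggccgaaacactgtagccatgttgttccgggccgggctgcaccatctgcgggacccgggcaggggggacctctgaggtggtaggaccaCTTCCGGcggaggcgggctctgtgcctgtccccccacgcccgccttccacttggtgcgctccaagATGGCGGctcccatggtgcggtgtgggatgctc
Mrpl18: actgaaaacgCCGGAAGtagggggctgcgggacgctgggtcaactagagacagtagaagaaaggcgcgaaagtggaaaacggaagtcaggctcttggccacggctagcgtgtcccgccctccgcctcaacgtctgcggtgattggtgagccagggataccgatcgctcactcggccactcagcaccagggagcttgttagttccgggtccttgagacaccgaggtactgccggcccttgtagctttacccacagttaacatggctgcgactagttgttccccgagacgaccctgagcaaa
Mrps21: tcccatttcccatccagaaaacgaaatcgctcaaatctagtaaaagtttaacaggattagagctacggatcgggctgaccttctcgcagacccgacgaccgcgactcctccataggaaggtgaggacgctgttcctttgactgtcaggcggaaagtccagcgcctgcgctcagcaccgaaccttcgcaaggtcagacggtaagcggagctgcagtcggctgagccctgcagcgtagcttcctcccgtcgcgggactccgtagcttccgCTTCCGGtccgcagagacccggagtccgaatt
Mrpl10: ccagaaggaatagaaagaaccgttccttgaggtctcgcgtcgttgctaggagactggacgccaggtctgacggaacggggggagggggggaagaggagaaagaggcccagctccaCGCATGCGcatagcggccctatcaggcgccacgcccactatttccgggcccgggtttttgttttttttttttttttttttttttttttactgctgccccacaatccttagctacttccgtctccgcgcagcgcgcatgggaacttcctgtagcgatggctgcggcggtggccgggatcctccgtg
Mrpl17: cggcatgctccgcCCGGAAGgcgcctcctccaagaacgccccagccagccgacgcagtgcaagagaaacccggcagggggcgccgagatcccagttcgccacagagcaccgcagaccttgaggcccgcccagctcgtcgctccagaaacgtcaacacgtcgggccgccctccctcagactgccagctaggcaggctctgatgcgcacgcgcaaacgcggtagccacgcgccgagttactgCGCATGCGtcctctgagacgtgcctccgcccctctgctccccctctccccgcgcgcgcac
Mrps18a: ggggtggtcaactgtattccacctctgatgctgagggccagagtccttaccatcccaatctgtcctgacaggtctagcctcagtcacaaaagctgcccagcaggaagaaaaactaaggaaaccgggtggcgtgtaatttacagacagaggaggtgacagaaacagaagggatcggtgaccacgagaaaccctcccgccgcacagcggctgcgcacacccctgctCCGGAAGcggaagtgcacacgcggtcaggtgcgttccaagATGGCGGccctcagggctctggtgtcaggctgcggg
Of these 8 windows, 7 held an ETS element, that of Mrpl10 being the exception. A YY1 element lay in those of Mrps27 and Mrps18a, and an NRF1 element in those of Mrpl10 and Mrpl17. A match describes the letters and is not a measured binding site.

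The 78 genes were expressed in every library, and all 78 passed the filter of a mean of at least 0.5 FPKM in both tables. Their mean levels ran from 6.19 to 284 FPKM in BME, with a median of 39.7 FPKM, and from 4.41 to 340 FPKM on plastic, with a median of 30.8 FPKM. The tables were normalized separately, so levels in the 2 environments are set side by side and were not tested. Behind these values lay a mean of 171 to 1795 normalized reads per gene in BME and 147 to 1784 on plastic. Mrpl52, a mitochondria-specific protein of the large subunit, had the highest mean in both environments. Its FPKM was 273 in the mock library, 352, 259 and 285 in the untreated libraries of 682, 700 and 889, and 264 and 272 in the dox libraries of 700 and 889. Mrps21, the homologue of bacterial S21, and Mrpl12, which forms the flexible stalk and also binds mitochondrial RNA polymerase, followed in BME, and Mrps21 and Mrpl54 followed on plastic. The lowest means were those of Mrpl19, Mrpl35 and Mrps25 in BME and of Mrpl19, Mrpl48 and Mrpl1 on plastic. Summed over the 78 genes, the untreated libraries held 4012, 3576 and 3738 FPKM in lines 682, 700 and 889 in BME, against 3332 in the mock library and 3681 and 3815 in the dox libraries of 700 and 889. On plastic the untreated sums were 4860, 3078 and 2784 FPKM in lines 560, 700 and 889, and the dox sums were 2917, 3107 and 3060. By these sums the mock library was the lowest of the 6 in BME and its own untreated partner the highest, and the untreated library of line 560 was the highest on plastic. The order differed for the members' share of each library's FPKM sum, since the sums differed between libraries. In BME this share was 0.647%, 0.573% and 0.652% in the untreated libraries of lines 682, 700 and 889, 0.607% in the mock library, and 0.5605% and 0.644% in the dox libraries of 700 and 889. On plastic it was 0.688%, 0.538% and 0.522% untreated and 0.5501%, 0.474% and 0.496% with dox in lines 560, 700 and 889. The share was thus lower in the treated library of each of the 6 pairs, whereas the sum was higher with dox in lines 700 and 889 in both environments.

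Within the pairs, on the deposited FPKM scale, most members were lower with dox in the mock pair and in the plastic pair of line 560, and the medians of the other 4 pairs lay nearer 0. The change is the difference in log2(FPKM + 1), treated minus untreated, and the pseudocount of 1 makes it understate changes of low genes. In the mock pair the members had a median change of -0.25, with 74 of 78 below 0. In the induced BME pairs it was 0.0009 in line 700, with 39 below 0, and 0.04 in line 889, with 31 below 0. On plastic it was -0.60 in line 560, with 77 below 0, -0.05 in line 700, with 43 below 0, and 0.12 in line 889, with 25 below 0. The mock median thus lay below those of 4 of the 5 induced pairs and above that of line 560 on plastic. Over all genes tested, the medians of the 6 pairs lay between -0.01 and 0.01. With 1 mock pair against 5 induced pairs, an exact permutation test cannot give a two-sided p below 0.1667, so this order was not tested as a single value.

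The order of the members' medians depended on the scale, since equal sums rescale all genes of a library by the same factor. With every library of a table scaled to the same FPKM sum, the median change of all genes moved to 0.14 in the mock pair, -0.07 and -0.04 in lines 700 and 889 in BME, and 0.33, -0.16 and -0.17 in lines 560, 700 and 889 on plastic. The members' medians were then -0.09 in the mock pair, with 56 of 78 below 0, -0.07 and -0.0068 in lines 700 and 889 in BME, with 50 and 43 below 0, and -0.20, -0.23 and -0.09 in lines 560, 700 and 889 on plastic, with 61, 59 and 50 below 0. On that scale line 889 on plastic had a negative median in place of a positive one, and line 700 on plastic stood lowest. The medians of all genes moved down in both pairs as well, and the member median of line 889 stayed above that of all genes. Read against all genes, the members lay below the median of all genes on both scales in the mock pair and in lines 560 and 700 on plastic. The distance was on both scales largest in line 560, then in the mock pair, then in line 700.

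**Figure D1:**
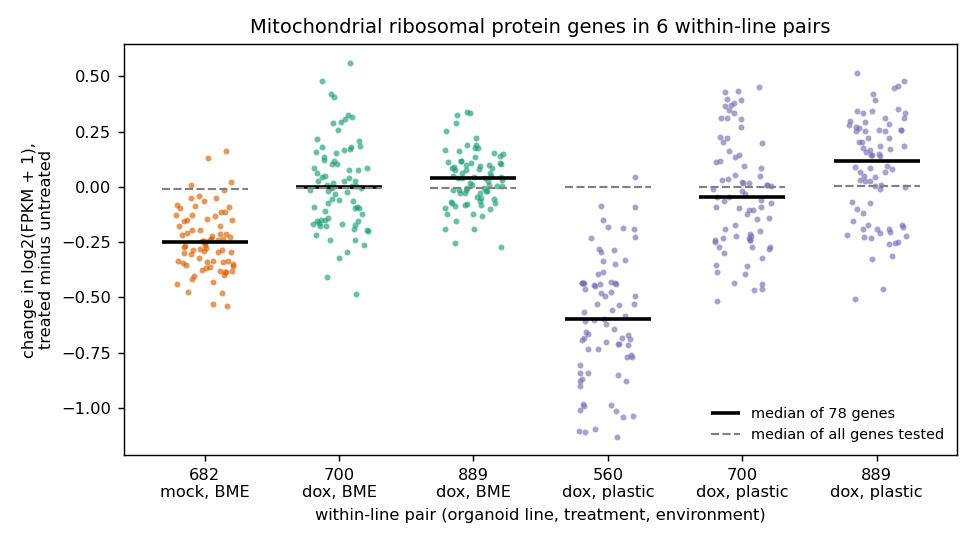
Change in log2(FPKM + 1), treated minus untreated, of each of the 78 genes (points) in 6 within-line pairs, with the median of the 78 genes as a black line and that of all genes tested as a dashed grey line. The points of the mock pair (median -0.25) and of line 560 on plastic (median -0.60) sit below 0, and those of the other 4 pairs spread around 0, on the deposited scale. With equal FPKM sums the medians are -0.09 in the mock pair and -0.20 in line 560, and -0.23 in line 700 on plastic.

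Genes that differed by more than 0.25 on the deposited scale were read against the share of all tested genes past the same limit. In the mock pair 39 of the 78 were lower by over 0.25, against 18.3% of all genes, and 0 were higher by over 0.25, against 17.9%. For line 560 on plastic these counts were 69 lower, against 35.6%, and 0 higher, against 35.5%. In BME, line 700 had 5 lower, against 20.4%, and 10 higher, against 18.2%, and line 889 had 2 lower, against 15.3%, and 5 higher, against 17.1%. In these 2 pairs the members' share past the limit was below that of all genes in both directions. On plastic, line 700 had 16 lower, against 25.7%, and 14 higher, against 25.5%, and line 889 had 7 lower, against 29.6%, and 25 higher, against 31.3%. Both the mock pair and the line 560 pair were below 0 for 73 of the 78 genes, against 32.9% of the genes tested in both tables.

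Set against the other BME pairs, the change in the mock pair was below both induced changes for 66 of the 78 genes, against 33.3% of all genes tested in BME. It held for 32 genes with equal FPKM sums, against 12.9%. On the deposited scale the 12 remaining genes included Mrpl10, Mrpl17, Mrps18a and Mrps30. The limma contrast of the mock pair minus the mean of the 5 induced pairs had a median of -0.14 over the 78 genes and -0.03 over all genes tested, and with equal FPKM sums these medians were 0.05 and 0.15. In this contrast limma with Benjamini-Hochberg adjustment called 0 of the 78, against 0% of all genes, and 0 of the 78 had an unadjusted p under 0.05, against 1.17% of all genes. The lowest adjusted p of a member was 0.999839 by limma. With a smooth trend of the change with transcript length removed the median was -0.05, beside -0.01 over all genes. Against the 2 induced pairs in BME alone it was -0.28, and -0.07 with the length trend removed. Leaving out 1 induced pair at a time gave medians from -0.24, without the plastic pair of line 560, to -0.08, without that of line 889. Without line 560, 5 members were lower at an unadjusted p under 0.05, or 6.41% against 7.31% of all genes in either direction in that fit. The mock pair gave no spread of its own in these fits and was assumed to vary as the induced pairs do. A p that misses the threshold does not show that the mock pair and the induced pairs were alike.

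**Figure D2:**
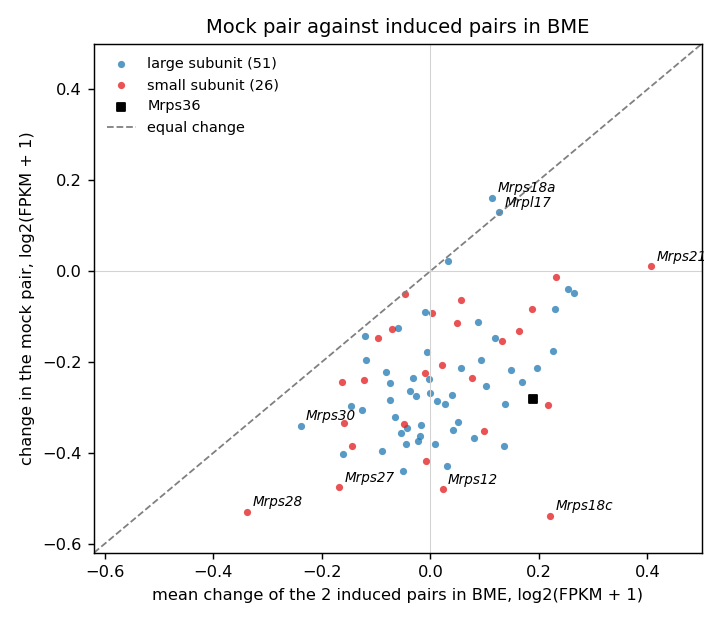
Change in the mock pair (vertical axis) against the mean change of the 2 induced pairs in BME (horizontal axis), both in log2(FPKM + 1), for the 51 large subunit genes, 26 small subunit genes and Mrps36. Most points lie below the dashed line of equal change and below 0 on the vertical axis, while the horizontal values spread to both sides of 0.

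Both subunits had negative medians of similar size in the 2 pairs where the members were lower. In the mock pair the 51 large subunit genes had a median change of -0.27, with 48 below 0, and the 26 small subunit genes -0.23, with 25 below 0. In line 560 on plastic the medians were -0.60 and -0.67, with 51 and 25 genes below 0. With equal FPKM sums the medians were -0.11 and -0.06 in the mock pair and -0.19 and -0.27 in line 560. The difference between the subunits was not tested.

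The lowest changes in the mock pair were those of Mrps18c, Mrps28, Mrps12, Mrps27 and Mrpl18. Mrps18c, the homologue of bacterial S18 in the small subunit (chr5:101227646-101233490, plus strand, build mm9), stood at 53.3 FPKM in the mock library and 77.8 FPKM in its partner, a change of -0.54. In the untreated and dox libraries of the induced BME pairs it was 58.0 and 72.0 FPKM in line 700, and 68.0 and 74.7 FPKM in line 889. The mock library was thus the lowest of the 6, and both dox libraries were above their own partners. The limma contrast of the mock pair with the induced pairs for Mrps18c was -0.57 ± 0.43 (SE), with an adjusted p of 0.999839.

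Mrps12, the homologue of bacterial S12 at the decoding site (chr7:29524660-29526839, minus strand, mm9), was 42.8 FPKM in the mock library and 60.0 FPKM in its partner, a change of -0.48. Its values were 41.3 and 39.3 FPKM in the untreated and dox libraries of line 700, and 48.2 and 52.3 FPKM in those of line 889. The untreated library of line 682 was the highest of the 6, and the mock library lay within the range of the others. Mrpl18, which belongs to the central protuberance of the large subunit, was 39.1 FPKM in the mock library against 53.3 FPKM in its partner, a change of -0.44, beside -0.16 and 0.06 in the induced BME pairs.

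On the deposited scale 4 of the 78 genes were higher in the mock library than in its partner, and with equal FPKM sums 22 were. The 4 were Mrps18a, Mrpl17, Mrpl10 and Mrps21. Mrps18a, a large subunit protein (chr17:46247935-46265859, plus strand, mm9), was 46.7 against 41.7 FPKM, a change of 0.16. Mrpl17, the homologue of bacterial L17, changed by 0.13, Mrpl10, which anchors the stalk proteins, by 0.02 and Mrps21 by 0.01. In line 560 on plastic all 4 were lower, by changes of -0.84, -0.44, -0.33 and -1.01. In lines 700 and 889 on plastic the same 4 genes were higher with dox.

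Across the induced pairs in BME, limma called 0 of the 78 genes at an adjusted p under 0.05 and a change over 1 in size, against 0.0231% of all 12996 genes tested. At an unadjusted p under 0.05 there were 2 of 78, against 4.09% of all genes, and limma-voom on rebuilt reads gave 0 called and 0 at that p. This fit set the 2 dox libraries against the 4 others, the mock library included. The median member change was 0.03, beside -0.01 over all genes, and it was -0.0813 with the mock library counted with dox and -0.04 with equal FPKM sums, beside -0.07 over all genes. Both induced pairs were higher for 25 of the 78 genes, against 27.2%, and both lower for 17, against 29.5%.

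The 2 genes at an unadjusted p under 0.05 in BME were Mrpl53 and Mrps21, both higher with dox. With the length trend removed 0 members were higher and 1 was lower at that p, against 3.95% of all genes in either direction. Equal FPKM sums gave the same counts, against 3.55%. The replicate block by line gave 1 higher and 0 lower, against 7.41%. Mrpl53, a mitochondria-specific large subunit protein (chr6:83059089-83059933, plus strand, mm9), was 32.7 and 37.9 FPKM in the untreated and dox libraries of line 700, 30.9 and 38.9 FPKM in those of line 889, and 28.3 and 27.3 FPKM in the untreated and mock libraries of line 682. The 2 dox libraries were above the 4 others, by 0.36 ± 0.13 (SE, limma adjusted p = 0.959), and the change was 0.16 with the mock library counted with dox. On plastic Mrpl53 was 45.8, 34.0 and 28.8 FPKM untreated and 33.6, 41.2 and 39.6 FPKM with dox in lines 560, 700 and 889, so the groups overlapped. Mrps21 was 117 and 173 FPKM in line 700, 138 and 165 FPKM in line 889, and 139 and 140 FPKM in line 682, in the same order. Its 2 dox libraries were again above the 4 others, by 0.34 ± 0.14 (SE, limma adjusted p = 0.959). On plastic the untreated library of line 560 held 323 FPKM of Mrps21 and the other untreated libraries 157 FPKM each, against 160, 203 and 225 FPKM with dox.

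Among the genes that went the same way in both induced BME pairs, the other large positive limma changes were those of Mrps36, Mrpl41 and Mrps6, at 0.29 ± 0.16, 0.28 ± 0.22 and 0.26 ± 0.18 (SE). The large negative ones were those of Mrps28, Mrps30, Mrpl23, Mrps35 and Mrps27, at -0.48 ± 0.21, -0.21 ± 0.15, -0.19 ± 0.19, -0.17 ± 0.21 and -0.17 ± 0.20 (SE). Several of these rested on 1 library. Without the dox library of line 700 the change was 0.06 for Mrps27, -0.10 for Mrps30, 0.0751 for Mrps6, 0.51 for Mrpl41 and -0.38 for Mrps35. Without the dox library of line 889 it was 0.0349 for Mrps35, 0.0601 for Mrpl41, 0.45 for Mrps6, and -0.40 for Mrps27. Without the untreated library of line 682 it was -0.07 for Mrpl23, -0.09 for Mrps27 and -0.11 for Mrps35, and without that of line 700 it was -0.09 for Mrps35. The replicate block by line gave -0.0219 for Mrpl23 and 0.15 for Mrpl41. Counting the mock library with dox gave 0.0325 for Mrps36, 0.026 for Mrpl41, 0.0977 for Mrps6 and -0.27 for Mrps27. The lowest adjusted p of the 78 genes was 0.959 by limma.

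On plastic, limma called 0 of the 78 genes, against 0.0324% of all 12333 genes tested. At an unadjusted p under 0.05 there was 1 of 78, against 8.29% of all genes, and limma-voom gave 0 called and 0 at that p. The median member change was -0.19, beside 0.01 over all genes, and 61 of the 78 changes were below 0. Without the untreated library of line 560 the median was 0.03, and with the length trend removed it was -0.12. All 3 pairs were lower for 25 of the 78 genes, against 18.7% of all genes, and all 3 were higher for 0 genes, against 18.6%. Line 560 set this second count, since 1 gene of the 78, Mrps2, was higher with dox there. Both induced BME pairs were higher and all 3 plastic pairs lower for 3 of the 78 genes, against 2.25% of the 11977 genes tested in both tables.

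Mrps15, which binds the ribosomal RNA of the small subunit (chr4:125724169-125732776, plus strand, mm9), was the gene at an unadjusted p under 0.05 on plastic. Its FPKM was 80.3, 73.1 and 61.1 in the untreated libraries of lines 560, 700 and 889, and 46.7, 60.3 and 42.6 in the dox libraries. The dox libraries all lay below the untreated ones, without overlap, by -0.52 ± 0.21 (SE, limma adjusted p = 0.599). In BME the Mrps15 values were 54.96 and 46.5 FPKM in the untreated and mock libraries of line 682, 45.7 and 51.4 FPKM in the untreated and dox libraries of line 700, and 51.3 and 50.7 FPKM in those of line 889. The test of the environments against each other gave -0.56 ± 0.24 for Mrps15 (SE, plastic minus BME, limma adjusted p = 0.999852). That was 1 of 78 members at an unadjusted p under 0.05 in this test, against 2.53% of all genes, and limma called 0 of the 78, against 0% of all 11977 genes. The median of the 78 differences was -0.22, beside 0.0071 without the untreated library of line 560, -0.35 without the untreated plastic library of line 889, -0.10 with the length trend removed and -0.14 with the mock library counted with dox.

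**Figure D3:**
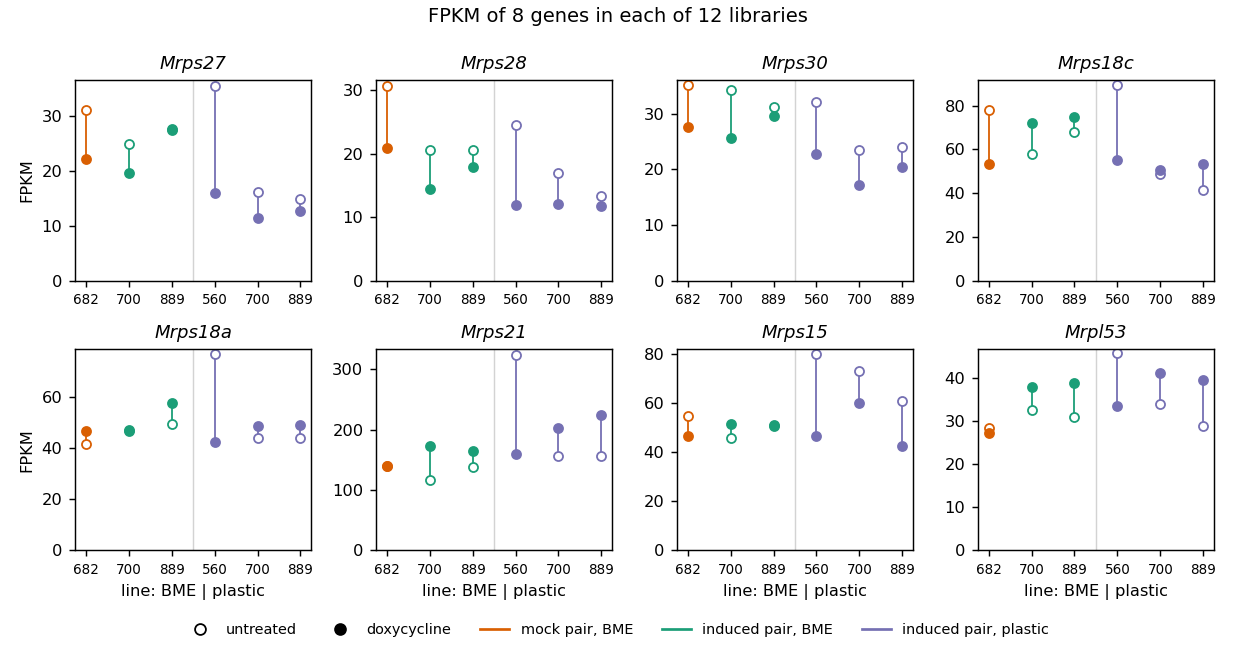
FPKM of 8 genes in each of the 12 libraries, with untreated (open) and dox (filled) libraries of a pair joined by a line, for the mock pair and 2 induced pairs in BME and 3 induced pairs on plastic. Mrps27, Mrps28 and Mrps30 were lower with dox in all 6 pairs, whereas Mrps21 and Mrpl53 were higher in the induced BME pairs and lower in line 560 on plastic.

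Lower values in all 6 pairs, mock and induced, were found for 11 of the 78 genes, against 6.12% of the 11977 genes tested in both tables. They were Mrpl9, Mrpl13, Mrpl15, Mrpl19, Mrpl37, Mrpl42, Mrps27, Mrps28, Mrps30, Mrps31 and Mrps35, and 0 genes were higher in all 6. Equal FPKM sums gave 19 genes lower in all 6, against 4.65%. Mrps28, the counterpart of bacterial S1 (chr3:8802146-8923918, minus strand, mm9), was 30.7 and 20.96 FPKM in the untreated and mock libraries of line 682. In BME it was 20.6 and 14.4 FPKM in the untreated and dox libraries of line 700, and 20.6 and 17.9 FPKM in those of line 889. On plastic the untreated values were 24.6, 17.04 and 13.4 FPKM in lines 560, 700 and 889, and the dox values 11.9, 12.1 and 11.7 FPKM. The 2 dox libraries in BME lay below the 4 others, and the 3 on plastic lay below the 3 untreated ones. The limma changes of Mrps28 were -0.48 ± 0.21 in BME (SE, adjusted p = 0.959) and -0.54 ± 0.25 on plastic (SE, adjusted p = 0.63), so neither was called. Without the untreated library of line 560 the change on plastic was -0.32.

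Mrps27, a pentatricopeptide repeat protein of the small subunit (chr13:100114741-100185516, plus strand, mm9), was 31.1 and 22.1 FPKM in the untreated and mock libraries of line 682. The untreated and dox values were 24.8 and 19.6 FPKM in line 700 and 27.6 and 27.4 FPKM in line 889 in BME. On plastic they were 35.4 and 16.03 FPKM in line 560, 16.2 and 11.5 FPKM in line 700, and 14.9 and 12.7 FPKM in line 889. The 2 treatment groups overlapped in both environments. Mrps30, a mitochondria-specific large subunit protein (chr13:119168917-119176059, minus strand, mm9), changed by -0.34 in the mock pair, by -0.41 and -0.07 in lines 700 and 889 in BME, and by -0.47, -0.43 and -0.22 in lines 560, 700 and 889 on plastic.

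The remaining genes chosen for their known roles lay between these extremes in the mock pair. Mrpl12 changed by -0.29 in the mock pair, by 0.12 and 0.15 in lines 700 and 889 in BME, and by -0.72, -0.14 and 0.0018 in lines 560, 700 and 889 on plastic. Mrpl44, an RNase III-like protein of the large subunit, changed by -0.24 in the mock pair and by -0.15 and 0.09 in the induced BME pairs. Mrpl45, which lies at the exit tunnel and anchors the ribosome to the inner membrane, changed by -0.09 there and by 0.03 and -0.05. The small subunit proteins Mrps7, Mrps22 and Mrps34 changed by -0.13, -0.13 and -0.06 in the mock pair, and Mrps18b by -0.39. Mrpl3 changed by -0.31 in the mock pair and by -0.30 and 0.04 in the induced BME pairs. Mrps36, no ribosomal protein despite its name, changed by -0.28 in the mock pair and by 0.29 and 0.09 in the induced BME pairs.

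Transcript length moved with these changes. The members had a median effective length of 0.899 kb, from 0.234 to 6.58 kb, against 2.49 kb for all genes tested in BME. Of the 78, 38 lay in the shortest eighth of all genes there and 8 above the median length of all genes. In the mock pair the median change ran from -0.13 in the shortest eighth of all genes to 0.16 in the longest. In line 560 on plastic it ran from -0.61 to 0.64, and in line 889 on plastic in the opposite direction, from 0.17 to -0.24. The ends differed by less in the other pairs, at 0.06 and -0.03 for line 700 and 0.02 and -0.11 for line 889 in BME, and at 0.0047 and -0.09 for line 700 on plastic. The member median of the mock pair, -0.25, was thus below that of the shortest eighth, and that of line 560, -0.60, was close to it. After a smooth trend with length was subtracted, the member medians were -0.16 in the mock pair, with 65 of 78 below 0, and -0.20 in line 560 on plastic, with 58 below 0. They were -0.04 and -0.02 in lines 700 and 889 in BME, and -0.09 and -0.02 in lines 700 and 889 on plastic. The mock change was then below both induced BME changes for 47 of the 78 genes, against 31.6% of all genes, and lower values in all 6 pairs were found for 13 genes, against 8.13%. Mrps27, Mrps28 and Mrps30 were among these 13.

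**Figure D4:**
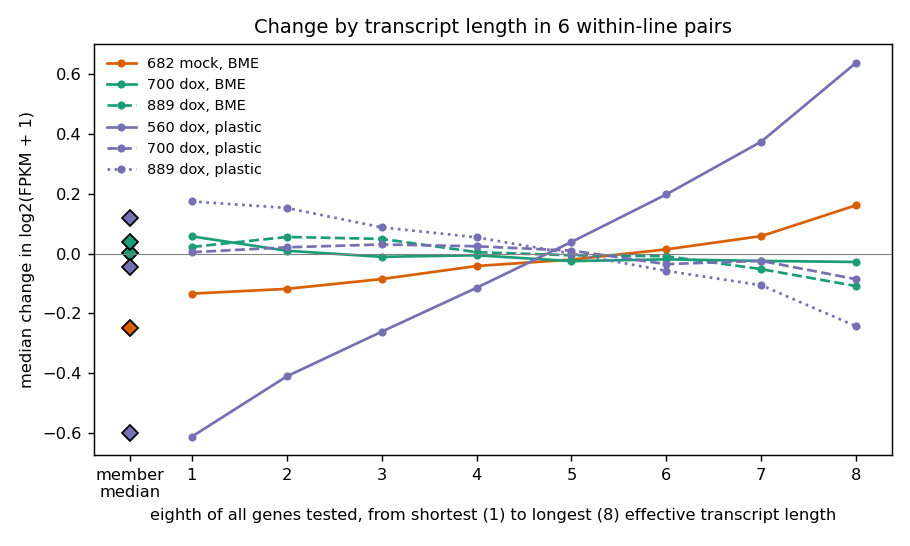
Median change in log2(FPKM + 1) of all genes tested (lines), by eighth of effective transcript length from shortest to longest, for 6 within-line pairs, with the median of the 78 mitochondrial ribosomal protein genes as diamonds at the left. Line 560 on plastic runs from -0.61 to 0.64 and the mock pair from -0.13 to 0.16, and their diamonds are the lowest of the 6 on the deposited scale. Line 700 on plastic is the lowest with equal FPKM sums, at -0.23 beside -0.16 over all genes. Line 560 is then at -0.20 beside 0.33, and the mock pair at -0.09 beside 0.14.

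Related gene lists had differing medians, and the lists were not tested against each other. Median changes in the mock pair were -0.48 for 77 cytosolic ribosomal protein genes, with 77 below 0, and -0.16 for 78 nuclear genes of oxidative phosphorylation subunits, with 71 below 0. For 24 genes of mitoribosome assembly and rRNA modification the median was -0.18, with 22 below 0, and for 5 mitoribosome proteins under other symbols it was -0.18, with 4 below 0. The 15 mitochondrial translation factors had a median of 0.01, with 7 below 0, and the 17 mitochondrial aminoacyl-tRNA synthetases -0.03, with 9 below 0. For 8 genes of mitochondrial DNA transcription and replication the median was -0.24, with 7 below 0, and for 9 regulators -0.12, with 8 below 0. With equal FPKM sums, where the median of all genes was 0.14, these medians were -0.31 for the cytosolic ribosomal proteins, 0.0092 for oxidative phosphorylation, -0.0157 for assembly, -0.0057 for the proteins under other symbols, 0.16 for the translation factors, 0.14 for the synthetases, -0.07 for mitochondrial DNA transcription and replication and 0.0133 for the regulators. With the length trend removed the mock medians were -0.35 for the cytosolic ribosomal protein genes, with 77 below 0, -0.05 for the oxidative phosphorylation genes, with 49 below 0, and -0.10 for the assembly genes, with 20 below 0. They were -0.11 for the proteins under other symbols, -0.01 for the translation factors, -0.03 for the synthetases, -0.22 for mitochondrial DNA transcription and replication and -0.15 for the regulators, beside -0.16 for the 78 members. In line 560 on plastic the cytosolic ribosomal protein genes had a median of -0.88 and the oxidative phosphorylation genes -0.59, and -0.33 and -0.02 with the length trend removed. The oxidative phosphorylation genes had positive medians in the other 4 pairs, at 0.19 and 0.06 in lines 700 and 889 in BME and 0.12 and 0.26 on plastic, and at 0.13, 0.0079, 0.07 and 0.08 with the length trend removed. On the scale of equal sums they were 0.12 and 0.0113 in BME and -0.07 and 0.05 on plastic. The medians of all genes were then -0.07 and -0.04 in BME and -0.16 and -0.17 on plastic.

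**Figure D5:**
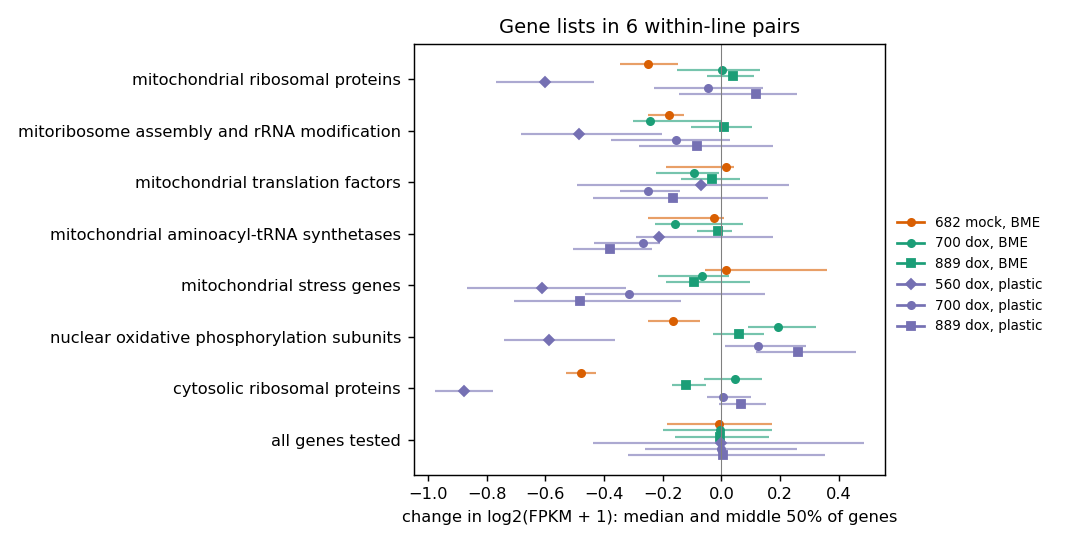
Median (marker) and middle 50% of genes (line) of the change in log2(FPKM + 1) for 8 sets of genes in each of 6 within-line pairs. Cytosolic and mitochondrial ribosomal protein genes stand lowest in line 560 on plastic and next lowest in the mock pair on the deposited scale, where translation factors lie near 0 in the mock pair. With equal FPKM sums the mitochondrial ones have medians of -0.20 and -0.09 there, and -0.23 in line 700 on plastic. Those of all genes are then 0.33, 0.14 and -0.16.

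By limma, 0 genes of any of these lists were called in either environment. At an unadjusted p under 0.05 the oxidative phosphorylation subunits had 3 of 78 genes higher in BME, against 2.62% of all genes, and the regulators had 1 of 9, Esrra, a nuclear receptor that acts on genes of mitochondrial energy metabolism, at 0.44 ± 0.18 (SE, limma adjusted p = 0.959). On plastic 2 of the 17 aminoacyl-tRNA synthetases were lower at that p, against 3.73% of all genes. One was Vars2, which charges mitochondrial tRNA with valine, at 26.6, 25.4 and 19.9 FPKM in the untreated libraries of lines 560, 700 and 889 and 16.9, 18.5 and 12.2 FPKM with dox, and the groups did not overlap. Its limma change was -0.58 ± 0.23 (SE, adjusted p = 0.589). All 17 synthetase genes had a limma change below 0 on plastic, with a median of -0.22, and in BME 14 of 17 did, with a median of -0.08.

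Genes that respond to mitochondrial stress, such as targets of ATF4 and mitochondrial chaperones, were examined because impaired mitochondrial translation is known to raise some of them. In the mock pair the median change of the 19 tested was 0.02, with 10 above 0. With the length trend removed it was 0.07, with 5 below 0, beside -0.01 over all genes. With equal FPKM sums it was 0.19, with 2 below 0, beside 0.14 over all genes. In the induced pairs the medians were -0.07 and -0.09 in lines 700 and 889 in BME, and -0.61, -0.31 and -0.48 in lines 560, 700 and 889 on plastic. All of these were also below 0 with the length trend removed and with equal FPKM sums. The limma contrast of the mock pair minus the 5 induced pairs was above 0 for 18 of the 19, with a median of 0.37, beside -0.03 over all genes, and 2 were higher at an unadjusted p under 0.05, against 0.526% of all genes, with 0 called. On plastic 18 of 20 had a limma change below 0, with a median of -0.40, and 5 of 20 were lower at an unadjusted p under 0.05, against 3.73% of all genes. They included Phgdh, the first enzyme of serine synthesis, at -0.87 ± 0.29 (SE, limma adjusted p = 0.53), and the secreted stress factor Gdf15, at -1.15 ± 0.47 (SE, limma adjusted p = 0.599). Phgdh was 338, 245 and 304 FPKM untreated and 110, 200 and 186 FPKM with dox in lines 560, 700 and 889, and the groups did not overlap. In BME 11 of the 19 were below 0, with a median of -0.04.

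Among organoid lines, 1 of the 78 genes differed between lines 700 and 889 by over 0.5 on the log2(FPKM + 1) scale, in the same direction, in all 4 combinations of environment and treatment, against 5.08% of the 11977 genes. This was Mrpl20, the homologue of bacterial L20 (chr4:155177645-155183885, plus strand, mm9), which was named after its values were seen. Line 700 held 13.0 and 14.7 FPKM of Mrpl20 untreated and with dox in BME, against 35.5 and 43.6 FPKM in line 889 and 30.9 and 29.1 FPKM in the untreated and mock libraries of line 682. On plastic line 700 held 17.97 and 22.9 FPKM, against 36.8 and 44.1 FPKM in line 889 and 54.0 and 39.3 FPKM in line 560. Line 700 was the lowest line in both environments, without overlap, and within each of lines 700 and 889 the dox library was above the untreated one.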

How the data were processed

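RNA-Seq was analysed from 12 libraries, 6 per environment. Per the labels and methods the authors processed reads with Kallisto and DESeq2 on mm9; versions and annotation are not given in the sources used here. The deposited tables held FPKM values per gene and library, and a mean normalized count per gene (a signal averaged by the authors over libraries), which were used. Their columns of fold changes and p-values were not used. Reads were rebuilt as FPKM multiplied by the ratio of mean normalized count to mean FPKM, a ratio that also gave effective length; 83.7% to 88.0% of low values came out within 0.05 of a whole number.

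Values were tested as log2(FPKM + 1) with limma 3.58.1 (R 4.3.3, trended eBayes, Benjamini-Hochberg over all genes with a mean of at least 0.5 FPKM). For within-line differences the trend used each gene's mean level. Calls needed an adjusted p under 0.05 and a change over 1 in size. All 6 libraries of a table entered its fit, and all 12 that of the environments. The line numbers pair the libraries: deviations of same-line libraries correlated at 0.18 to 0.66. Alternatives were a pseudocount of 0.1, no filter, median centring, each library left out, a replicate block by line, a lowess length trend removed, libraries scaled to equal FPKM sums, and limma-voom. In simulated data with a spread of 0.1 between libraries, limma called 100 of 100 genes raised by 2 on the log2 scale in BME (12821 genes) and on plastic (12171), and 99 of 99 between environments (11841) and in the mock contrast (11858). The simulated libraries held no differences between lines. These counts check the fits and do not show how often smaller changes in these data would be called. Gene positions came from GENCODE M1 (NCBIM37, the mm9 assembly). P-values measure the spread between libraries, which may be in part technical. In the mock contrast the spread was measured on the induced pairs alone, and the mock pair was assumed to vary as they do.

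The members, gene lists and tests were chosen with earlier results of these data known. Named genes were, per environment, the 5 largest rises and 5 largest falls among members moving the same way in every induced pair; the 5 largest of each in the mock pair; the 3 highest and 3 lowest levels; 15 members of known role; and the 2 largest of each direction per list.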

Additional observations from a re-analysis of the deposited data

Results flagged for a closer look

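In the 4 BME libraries without SMAD4 induction, 1 library stood far from the other 3 for 2 of the 35 named members. That is about the number that 1 in 20 gives for unselected genes in independent libraries. Some members were named for changes in these same libraries, and line 682 gave both an untreated and the mock library. The count therefore cannot be judged against chance. For Mrps28 the gap to the nearest library took 0.962 of the whole range, with the untreated library of line 682 at 30.7 FPKM and the others at 20.6 to 20.96 FPKM. For Mrps21 the gap took 0.905 of the range, with the untreated library of line 700 at 117 FPKM and the others at 138 to 140 FPKM.

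Both induced BME pairs were higher and all 3 plastic pairs lower for 3 of the 78 members, against 2.25% of all genes. Of these, 2 were named members, Mrpl11 for its role and Mrps6 in part for its direction in BME. Mrpl11, at the base of the stalk of the large subunit, changed by 0.04 and 0.04 in BME and by -0.85, -0.22 and -0.07 on plastic, and the limma difference was -0.51 ± 0.30 (SE, plastic minus BME). Mrps6, the homologue of bacterial S6, changed by 0.19 and 0.19 in BME and by -0.87, -0.11 and -0.26 on plastic, with a limma difference of -0.67 ± 0.33 (SE). The adjusted p by limma was 0.999852 for both, so neither difference passed the test. With libraries scaled to equal FPKM sums the BME changes were -0.0291 and -0.0060 for Mrpl11 and 0.12 and 0.14 for Mrps6. The medians of all genes were then -0.07 and -0.04.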

How the results depend on the processing

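No setting run called a member in any of the 4 comparisons by limma, and members at an unadjusted p under 0.05 numbered 0 to 2 in BME, 0 to 4 on plastic, 0 to 3 between environments and 0 to 5 in the mock contrast. The fits with 4, 3 and 5 members at that p had 18.4% and 6.96%, 2.63% and 7.31% of all genes there, against 5.13%, 3.85% and 6.41% of the members. The median member change in BME, 0.03, was -0.0062 with the length trend removed, 0.0058 with the replicate block (organoid line), -0.0371 with both, -0.0402 with equal FPKM sums, -0.0062 with the mock library left out and -0.0813 with it counted with dox. Leaving out each of the other 5 BME libraries in turn gave 0.0127 to 0.0762. On plastic the range was -0.36 to 0.03, the highest without the untreated library of line 560 and the lowest without that of line 889, the length trend removed gave -0.12, and the replicate block gave -0.19, with 1 member at an unadjusted p under 0.05 and a lowest adjusted p of 0.361 by limma. The replicate block changed no call. Between environments the range was -0.35 to 0.0071, without the untreated plastic libraries of lines 889 and 560. The mock median, -0.25, was -0.16 with the length trend removed and -0.09 with equal FPKM sums, and leaving out a library of its single pair gives no value. The length trend, its fit with the block, equal FPKM sums, limma-voom and the length-adjusted contrast with the BME pairs were chosen after seeing the data.

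Among the named members, the contrast of mock with induced pairs changed sign with the length trend removed for Mrpl10 (0.0228), Mrpl17 (-0.11), Mrps21 (0.0377), Mrps27 (0.0080) and Mrps28 (0.0797), and against the 2 BME pairs with the trend removed for Mrpl10 (0.12), Mrpl17 (-0.22) and Mrps28 (0.0746). With equal FPKM sums it changed sign for Mrpl10 (0.15), Mrps21 (0.0706), Mrps27 (0.13) and Mrps28 (0.12). That scaling moved the median of this contrast over all genes from -0.03 to 0.15. Leaving out each induced pair in turn gave this contrast as -0.15 to 0.0113 for Mrpl10, -0.12 to 0.09 for Mrpl17, -0.22 to 0.048 for Mrps27 and -0.20 to 0.0020 for Mrps28. Leaving out each BME library gave changes in BME of -0.40 to 0.06 for Mrps27 and -0.38 to 0.0349 for Mrps35, with the sign changed without the dox library of line 700 for Mrps27 and without that of line 889 for Mrps35. The cause of these changes was not tested. A change under 1 in size could not be called by the rule used, whatever its p.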
